A study of Homo sapiens with 9 samples.

Results

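The glycolysis and hypoxia genes described here carry out glycolysis or are known targets and regulators of the hypoxia-inducible factors (HIF), and they were followed in MCF10A cells, an immortalised, non-tumorigenic human mammary epithelial line. They were chosen by name, by a rule that uses no measured value but with earlier results of these data known: 38 genes, of which 24 handle glucose, glycolytic intermediates or lactate and 14 are other HIF genes. Of these 38 genes, 35 had a probe set annotated to that gene alone, and SLC16A1, SLC16A3 and CA9 were not analysed here. The table held 19775 genes in all, of which 13723 had enough signal to be tested, and 34 of the 35 named members were among these. Enolase 2 (ENO2), the neuronal enolase, fell below the filter at signals of 0.51 to 10.6. The other 34 members would also have passed without the arrays labelled ERBB2 or without the vector arrays. Without the EGF arrays EGLN3 would not have passed.

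RNA was measured on 9 Affymetrix arrays, 3 each of 3 groups that the labels give as biological replicates. In the group labelled ERBB2, cells had received a retrovirus (pBabe) encoding ERBB2, a receptor tyrosine kinase that is amplified in part of breast cancers. In the EGF group, cells carried the empty pBabe vector and were harvested after 2 hours with 50 ng/ml of epidermal growth factor, a ligand of EGFR. The vector group carried the empty vector and received no EGF. All 9 cultures shared a medium with 2% horse serum and without EGF, after maintenance in 5% serum with 20 ng/ml EGF, insulin, hydrocortisone and cholera toxin. All groups come from 1 cell line, and the time between infection and harvest was not given in the sources used here.

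Glycolysis splits glucose into pyruvate in a chain of enzymes, from uptake and phosphorylation by transporters and hexokinases, through the committed step of phosphofructokinase, to pyruvate kinase and lactate dehydrogenase. HIF1A is the oxygen-regulated subunit of HIF-1: prolyl hydroxylases of the EGLN family mark it for degradation while oxygen is present, and growth factor signalling is known to raise its synthesis. Stabilised HIF-1 binds DNA at the core letters ACGTG or GCGTG and raises many glycolytic genes together with genes of blood vessel growth, pH control, collagen hydroxylation and mitochondrial turnover.

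Promoters that hold these core letters are shown for 6 members that stand for the patterns described below: PDK1 and HK2, higher in both groups than in vector cells; CA12, BNIP3 and EGLN1, lower in cells labelled ERBB2 and higher in EGF cells; and P4HA1, lower in cells labelled ERBB2. They were chosen after the values were seen. Each line gives bases 250 before to 50 after a transcription start, 5′ to 3′ on the gene's strand, from RefSeq on build GRCh38.p14, with the core letters on either strand (ACGTG or GCGTG, read as CACGT or CACGC on the other strand) in capitals. The PDK1 window lies at chr2:172555840-172556139 on the plus strand and HK2 at chr2:74834920-74835219 on the plus strand. CA12 lies at chr15:63381797-63382096, BNIP3 at chr10:131981874-131982173, EGLN1 at chr1:231422238-231422537 and P4HA1 at chr10:73096817-73097116, these 4 on the minus strand. For PDK1 and HK2, which have 2 windows each, the one with more matches is shown.
PDK1: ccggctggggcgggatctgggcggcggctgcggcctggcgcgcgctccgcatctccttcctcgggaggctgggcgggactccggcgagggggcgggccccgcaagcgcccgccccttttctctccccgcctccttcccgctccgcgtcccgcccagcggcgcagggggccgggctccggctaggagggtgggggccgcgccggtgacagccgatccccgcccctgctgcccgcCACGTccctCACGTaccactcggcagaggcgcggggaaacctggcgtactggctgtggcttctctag
HK2: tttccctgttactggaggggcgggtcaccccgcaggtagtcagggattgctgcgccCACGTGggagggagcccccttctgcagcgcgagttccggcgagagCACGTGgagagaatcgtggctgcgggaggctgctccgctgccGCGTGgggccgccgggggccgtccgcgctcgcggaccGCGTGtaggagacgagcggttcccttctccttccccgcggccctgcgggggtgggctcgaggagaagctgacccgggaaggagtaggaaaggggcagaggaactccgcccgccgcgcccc
CA12: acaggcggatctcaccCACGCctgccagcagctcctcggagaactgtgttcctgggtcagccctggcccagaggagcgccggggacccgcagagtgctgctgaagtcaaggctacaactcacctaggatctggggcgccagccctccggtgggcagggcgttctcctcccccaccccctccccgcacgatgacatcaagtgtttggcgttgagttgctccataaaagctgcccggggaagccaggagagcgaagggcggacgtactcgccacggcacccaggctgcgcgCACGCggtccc
BNIP3: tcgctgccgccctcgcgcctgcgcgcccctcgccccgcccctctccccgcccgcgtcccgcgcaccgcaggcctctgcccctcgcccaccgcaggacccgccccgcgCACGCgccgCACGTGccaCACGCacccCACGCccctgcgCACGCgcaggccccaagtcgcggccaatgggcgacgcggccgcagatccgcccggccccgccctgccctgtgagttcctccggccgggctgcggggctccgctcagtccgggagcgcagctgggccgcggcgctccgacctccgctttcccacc
EGLN1: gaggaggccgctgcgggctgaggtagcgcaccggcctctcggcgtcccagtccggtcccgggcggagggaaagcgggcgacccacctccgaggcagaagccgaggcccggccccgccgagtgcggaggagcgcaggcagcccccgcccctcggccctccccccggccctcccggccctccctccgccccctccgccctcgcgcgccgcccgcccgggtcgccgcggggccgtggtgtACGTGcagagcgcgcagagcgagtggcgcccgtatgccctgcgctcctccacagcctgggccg
P4HA1: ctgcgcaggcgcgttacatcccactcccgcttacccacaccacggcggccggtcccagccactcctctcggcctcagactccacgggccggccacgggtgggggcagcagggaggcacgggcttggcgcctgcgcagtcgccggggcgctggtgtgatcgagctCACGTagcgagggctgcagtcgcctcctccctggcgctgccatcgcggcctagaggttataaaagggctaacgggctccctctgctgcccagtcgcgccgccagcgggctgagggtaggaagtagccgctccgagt
Counted over both strands, so that the palindrome CACGTG counts in each direction, the windows of HK2 and BNIP3 hold 6 matches each, those of PDK1 and CA12 hold 2 each, and those of EGLN1 and P4HA1 hold 1 each. RefSeq windows were matched for 31 of the 35 named members. At least 1 core match stood in 37 of their 55 windows (67.3%), against 48.4% of all 35116 windows of the same length. The ACGTG form alone stood in 38.2% of member windows and 21.4% of all windows, and CACGTG in 14.5% and 7.26%. Windows of 1 gene can overlap, so they are not independent. A match describes the letters in the window and not a bound site.

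The deposited value is a signal intensity per probe set on a linear scale. Changes are differences of log2(signal + 16) with their standard errors (SE), folds are on the same signal + 16 scale, and a change was called at a Benjamini-Hochberg adjusted p under 0.05 in limma, adjusted over 32768 probe sets. Signals of different probe sets are not compared, since each set has its own response to RNA. All arrays had been scaled to a trimmed mean of 100.03. Median signals were 17.94 to 20.06 in arrays labelled ERBB2, 15.57 to 16.9 in EGF arrays and 19.85 to 20.18 in vector arrays. The 5′ to 3′ ratio of the ACTB control sets was 0.701 to 0.796 in arrays labelled ERBB2, 0.378 to 0.505 in EGF arrays and 0.325 to 0.436 in vector arrays. The 3′ control set of 18S ribosomal RNA read 11930 to 13510, 2103 to 3369 and 1945 to 4570 in the same groups. The part of these differences in the results below was not tested. The brightest of 3 ERBB2 probe sets read 98.8 ± 23.1 in arrays labelled ERBB2, 104 ± 23.3 in EGF arrays and 174 ± 48.0 in vector arrays (SD, n = 3 each), which goes against the label. A dimmer set was higher in arrays labelled ERBB2, at 35.6 ± 2.51 against 12.6 ± 8.78 in vector arrays. Probe positions were not given, so whether either set reads the introduced sequence is unknown, and the group is called by its label throughout.

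Of 11 mammary epithelial markers, 7 were named and all 7 were past the filter. The list holds basal markers such as KRT5 and KRT14, and also CDH1 and EPCAM, which are general epithelial markers. Summed signals were 11860 to 12690 in arrays labelled ERBB2, 15290 to 18130 in EGF arrays and 19060 to 21530 in vector arrays. Such sums follow their brightest sets, here KRT5, at means of 6227, 8847 and 11864. KRT14 had the widest change of the list in cells labelled ERBB2. It averaged 149 there, 1758 in EGF cells and 2640 in vector cells, with log2 changes against vector of -4.00 and -0.57, both called. Against vector, 4 of the 7 were lower and 2 higher (LAMB3 and EPCAM) in cells labelled ERBB2, and 5 were lower and 2 higher in EGF cells. Among luminal markers 5 of 7 were past the filter, with summed signals of 7389 to 8103, 6561 to 6729 and 4943 to 5654 in that order of groups. The luminal sum follows KRT18, at means of 6345, 5099 and 3559. It was the 1 luminal marker called higher in cells labelled ERBB2, while KRT8 and GATA3 were lower, and the list's median change was -0.35. In EGF cells KRT18 was higher and GATA3 lower. Fibroblast markers summed to 399.1 to 578.2, 511.2 to 565.3 and 1371 to 1519, with 3 of 7 past the filter, and COL3A1, PDGFRA, PDGFRB and LUM were not. That sum was mostly DCN, at means of 378, 433 and 1345, which was called lower in both groups, as was COL1A1 in cells labelled ERBB2. Blood and endothelial markers summed to 258.5 to 329.9, 253.2 to 292.9 and 249.4 to 265.7, with 3 of 7 named markers past the filter, and PTPRC, CD3E, CDH5 and VWF were not. PECAM1 was called higher in cells labelled ERBB2. The part of these differences in the results below was not tested. In bulk RNA, fewer cells of a type and less RNA per cell cannot be told apart.

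Cells labelled ERBB2 held less RNA of most HIF genes called and a mixed set of changes along glycolysis. Of 13 other HIF members tested, 8 were lower and 2 higher, with a median log2 change of -0.52. Of 21 glycolytic members, 6 were higher and 7 lower, with a median of -0.03, and none of the 13 called differed by 2-fold or more. Together 23 of 34 members were called (67.6%), against 45.9% of all genes tested, of which 20.8% were higher and 25.1% lower, at a median of -0.07. The 3 arrays labelled ERBB2 did not overlap the 3 vector arrays for 22 members, and for 52.7% of all genes. Over all probe sets, 38.7% were called.

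Cells given EGF showed higher RNA of several HIF genes and of selected glycolytic enzymes after the 2 hours. Of the 13 other HIF members, 7 were higher and 2 lower than in vector cells, with a median of 0.48, and the 7 include EGLN3, which passed the filter through these EGF arrays. Of the 21 glycolytic members 8 were higher and 3 lower, with a median of 0.16. In all, 20 of 34 members were called (58.8%), against 36.2% of all genes, of which 17.2% were higher and 19% lower, at a median of -0.10. Non-overlapping groups were found for 20 members and for 48.8% of all genes, and 28.8% of probe sets were called. When the arrays were set to equal medians in place of the deposited scaling, the median of all tested probe sets moved from -0.11 to 0.05 and the members called became 20 higher and 1 lower, against 15 and 5 as deposited. Rises made up 67.5% of all probe sets called under that scaling and 44.8% as deposited.

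**Figure D1:**
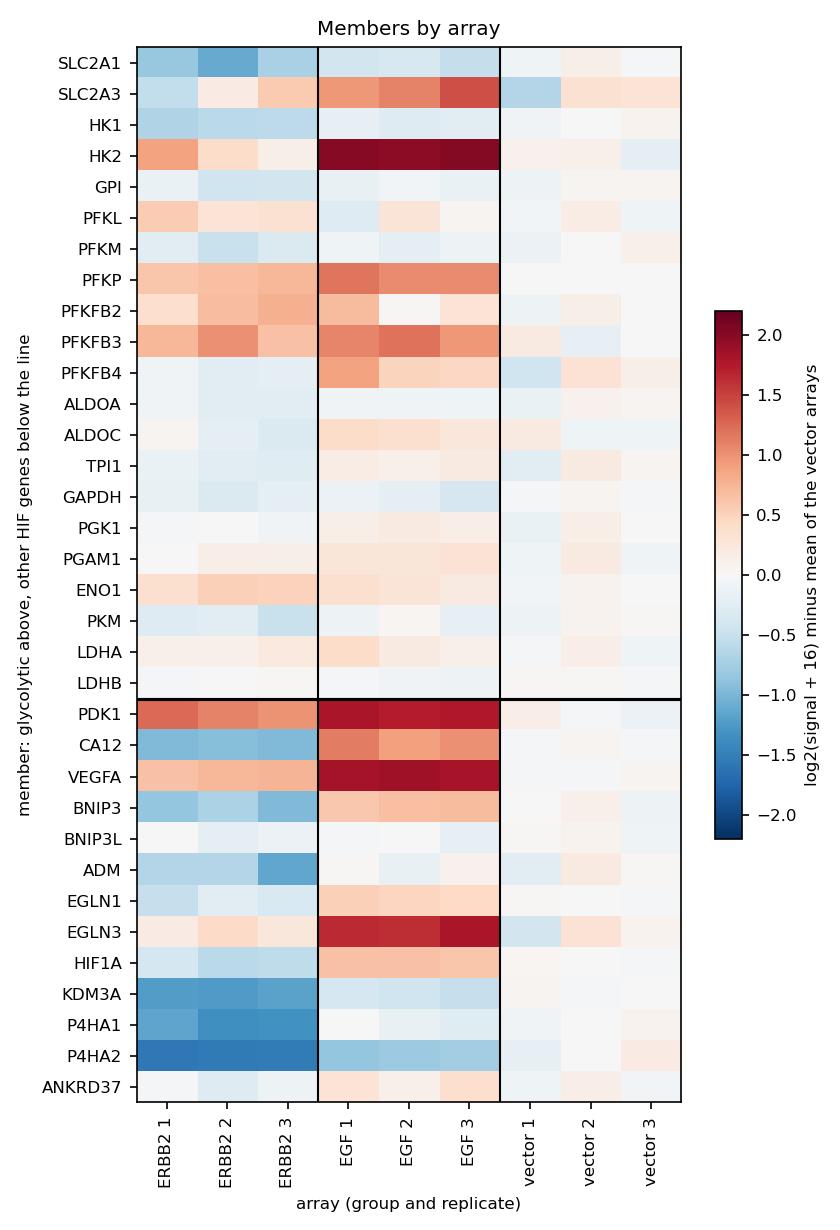
Each cell is 1 member on 1 array, coloured by log2(signal + 16) minus the mean of the 3 vector arrays, with glycolytic members above the line and other HIF members below it. EGF arrays are above the vector mean for HK2, PDK1 and VEGFA, and arrays labelled ERBB2 are below it for P4HA1, P4HA2 and KDM3A.

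In the direct comparison, most members called were lower in cells labelled ERBB2. Of 34 members, 20 were lower and 1 higher in cells labelled ERBB2 than in EGF cells (61.8% called, against 28.9% of all genes). Over all genes 12.8% were higher and 16.1% lower, with a median of 0.01, while the members' median was -0.41. The other HIF genes accounted for 11 of the 20 lower members, at a median of -0.84, and none of them was called higher. The 11 include EGLN3, which passed the filter through the EGF arrays, so its call here is no independent result. The glycolytic members had 9 lower and 1 higher, at a median of -0.21. Groups did not overlap for 25 members and 43.1% of all genes, and 23.8% of probe sets were called. With equal array medians the members called were 27 lower and 0 higher, and the share of rises among all probe sets called was 31.8%, against 48.7% as deposited. The median of all tested probe sets was -0.08 under that scaling and 0.03 as deposited. These 3 comparisons share arrays pairwise, so their values are given side by side and not as independent findings.

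**Figure D2:**
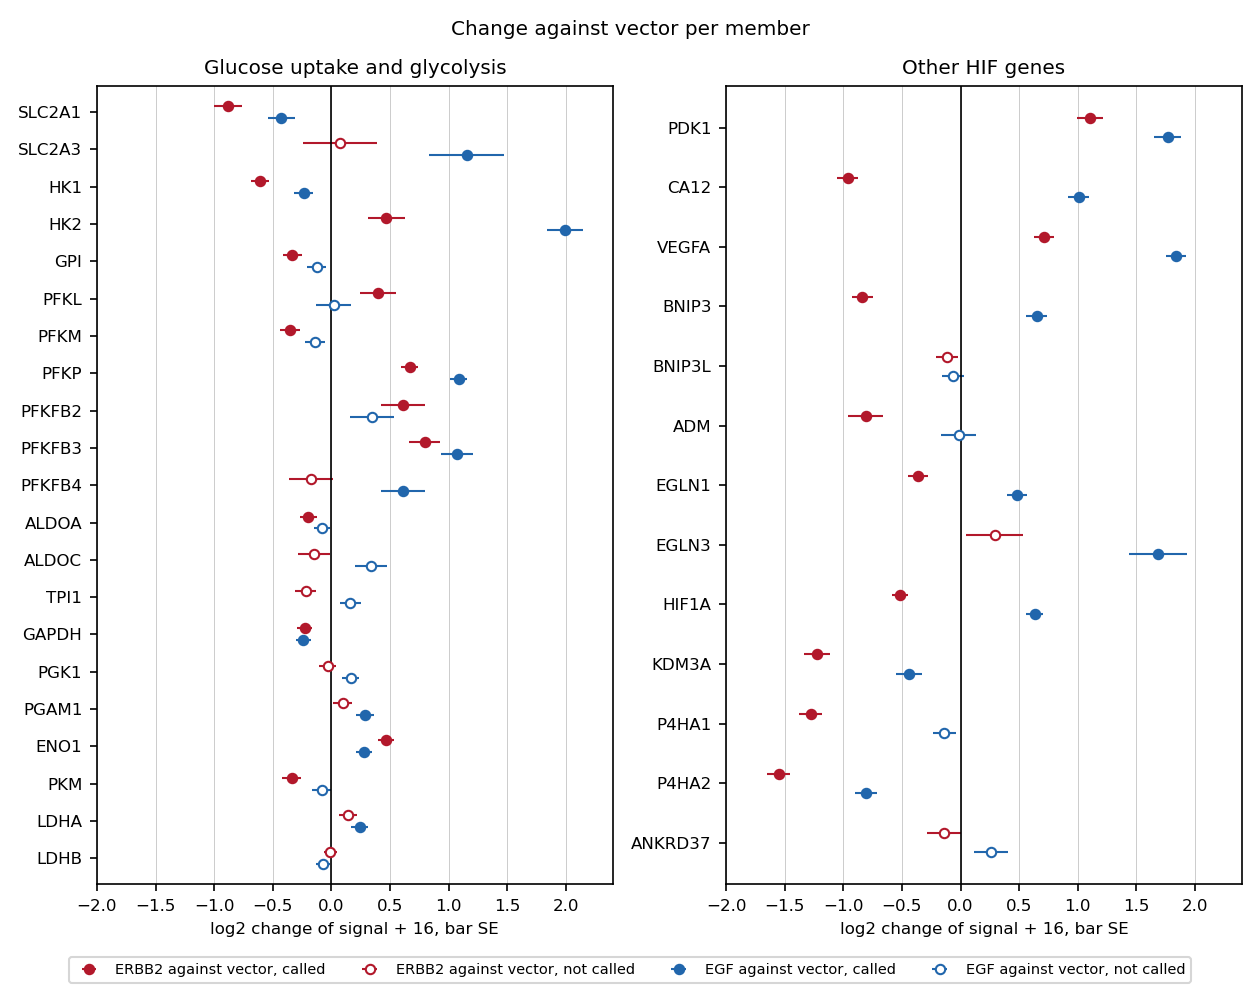
Points are log2 changes of signal + 16 against the 3 vector arrays for arrays labelled ERBB2 and for EGF arrays, bars are SEs, and filled points were called at an adjusted p under 0.05. HK2, VEGFA and PDK1 lie furthest to the right for EGF, at 2.00, 1.84 and 1.77, and P4HA2 lies furthest to the left for the arrays labelled ERBB2, at -1.55.

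Glucose enters through transporters that differ in affinity. SLC2A1 (GLUT1), the basal transporter of many cells, read 209, 171 and 228 in arrays labelled ERBB2, 287, 298 and 264 in EGF arrays and 359.7, 422 and 376 in vector arrays. The groups did not overlap, with vector cells highest and cells labelled ERBB2 lowest. The log2 change was -0.88 ± 0.12 in cells labelled ERBB2 against vector (SE, adjusted p = 4.291e-06) and -0.43 ± 0.12 in EGF cells against vector (adjusted p = 0.009269). With equal array medians the EGF change was -0.27 and was not called. Cells labelled ERBB2 were also lower than EGF cells (-0.46, adjusted p = 0.006726), but not with the mean of both SLC2A1 sets (-0.38). SLC2A3 (GLUT3), a high-affinity transporter, was dim: 2.62, 14.9 and 24.3 in arrays labelled ERBB2, 36.6, 41.4 and 56.3 in EGF arrays and 1.28, 18.3 and 17.5 in vector arrays. All EGF arrays lay above the others, but most of the other signals were at or under about 16, where signal and background cannot be separated, so no exact change is given. SLC2A3 was called higher in EGF cells than in vector cells, with log2 changes of 0.51 to 2.27 for pseudocounts of 64 and 1, and leaving out either vector replicate 1 or EGF replicate 3 ended the call. The 2 transporters thus had their highest signals in different groups.

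Hexokinases trap glucose in the cell by phosphorylation. HK2, the inducible isoform that HIF-1 is known to raise, read 232, 162 and 130.2 in arrays labelled ERBB2, 522, 508 and 529 in EGF arrays and 128, 129.7 and 99.6 in vector arrays. The EGF arrays stood apart from the other 6, while arrays labelled ERBB2 lay just above the vector arrays. The change in EGF cells was 2.00 ± 0.15 over vector (3.99-fold, adjusted p = 7.071e-09). Of 2 dim further HK2 sets, 1 was called higher (0.61) and 1 was not called (0.17), and the mean of all 3 sets changed by 0.93. In cells labelled ERBB2 the HK2 change was 0.47 ± 0.15 (adjusted p = 0.02045), a call that ended without ERBB2 replicate 1 (0.26) or vector replicate 3 (0.36). The 2 further HK2 sets changed there by 0.53 and 0.55 and were not called (adjusted p = 0.05012 and 0.05519). The mean of all 3 sets was called higher (0.52, adjusted p = 0.002548). HK1, the constitutive isoform, ran the other way: 805, 841 and 854 in arrays labelled ERBB2, 1123, 1045 and 1079 in EGF arrays and 1207, 1279 and 1354 in vector arrays. HK1 fell by 0.61 ± 0.08 in cells labelled ERBB2 (adjusted p = 2.619e-06). In EGF cells its change was -0.24 (adjusted p = 0.02635), a call that ended without EGF replicate 2 or 3, without vector replicate 2 or 3, and with equal array medians (-0.08). Cells labelled ERBB2 had less of both hexokinases than EGF cells, by -1.53 ± 0.15 for HK2 (adjusted p = 3.921e-07, or -0.41 with the mean of its sets) and -0.37 ± 0.08 for HK1 (adjusted p = 0.001333).

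GPI, which turns glucose 6-phosphate into fructose 6-phosphate, averaged 1625 ± 182 in cells labelled ERBB2, 1871 ± 69.3 in EGF cells and 2046 ± 145 in vector cells (SD, n = 3 each). It was lower in cells labelled ERBB2 than in vector cells (-0.33, adjusted p = 0.003227) and was not called in EGF cells.

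Phosphofructokinase, the committed step, has 3 subunits, and they did not move alike. The platelet-type subunit PFKP read 1535, 1587 and 1675 in arrays labelled ERBB2, 2286, 2071 and 2077 in EGF arrays and 996, 998 and 1007 in vector arrays. The 3 groups were fully separate, with PFKP higher by 0.67 ± 0.07 in cells labelled ERBB2 (1.59-fold, adjusted p = 3.515e-07) and by 1.09 ± 0.07 in EGF cells (2.12-fold, adjusted p = 1.043e-09). A dim further PFKP probe set was not called and had the opposite sign, and with the mean of both sets the change was 0.48 in EGF cells and was not called in cells labelled ERBB2. Cells labelled ERBB2 were lower in PFKP than EGF cells, at -0.42 (adjusted p = 0.0002372), but not with that mean. The muscle-type subunit PFKM averaged 999.98 ± 87.0, 1157 ± 54.3 and 1279 ± 104 in ERBB2-labelled, EGF and vector cells, and fell by 0.35 in cells labelled ERBB2 (adjusted p = 0.002777). The liver-type subunit PFKL averaged 173 ± 18.7, 131 ± 28.1 and 127 ± 14.2 in the same groups. PFKL was called higher in cells labelled ERBB2 (0.40, adjusted p = 0.04531), and this call near the threshold was lost under 11 of 19 alternatives, among them leaving out any 1 array labelled ERBB2, vector replicate 1 or 3, or EGF replicate 3.

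The PFKFB enzymes make and break down fructose 2,6-bisphosphate, the strongest known activator of phosphofructokinase. PFKFB3, the isoform with the highest kinase activity, read 214, 264 and 201 in arrays labelled ERBB2, 275, 299.8 and 253 in EGF arrays and 142, 106 and 122 in vector arrays. Both groups lay above vector, at 0.80 ± 0.13 in cells labelled ERBB2 (1.74-fold, adjusted p = 6.876e-05) and 1.07 ± 0.13 in EGF cells (2.1-fold, adjusted p = 3.891e-06). Their difference from each other was -0.27 (adjusted p = 0.1559). PFKFB4 read 79.0, 69.7 and 70.9 in arrays labelled ERBB2, 169, 126 and 122 in EGF arrays and 58.0, 109 and 93.9 in vector arrays. PFKFB4 was higher in EGF cells than in vector cells (0.61, adjusted p = 0.01751), a call that ended without EGF replicate 1 (0.48) or vector replicate 1 (0.39). It was lower in cells labelled ERBB2 than in EGF cells (-0.79, adjusted p = 0.003641). PFKFB2, the heart-type isoform, averaged 102 ± 17.2 in cells labelled ERBB2, 83.2 ± 23.5 in EGF cells and 60.8 ± 6.43 in vector cells. Its rise in cells labelled ERBB2 (0.61, adjusted p = 0.01226) was not called without ERBB2 replicate 3, and the mean of its probe sets had the opposite sign, at -0.042.

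**Figure D3:**
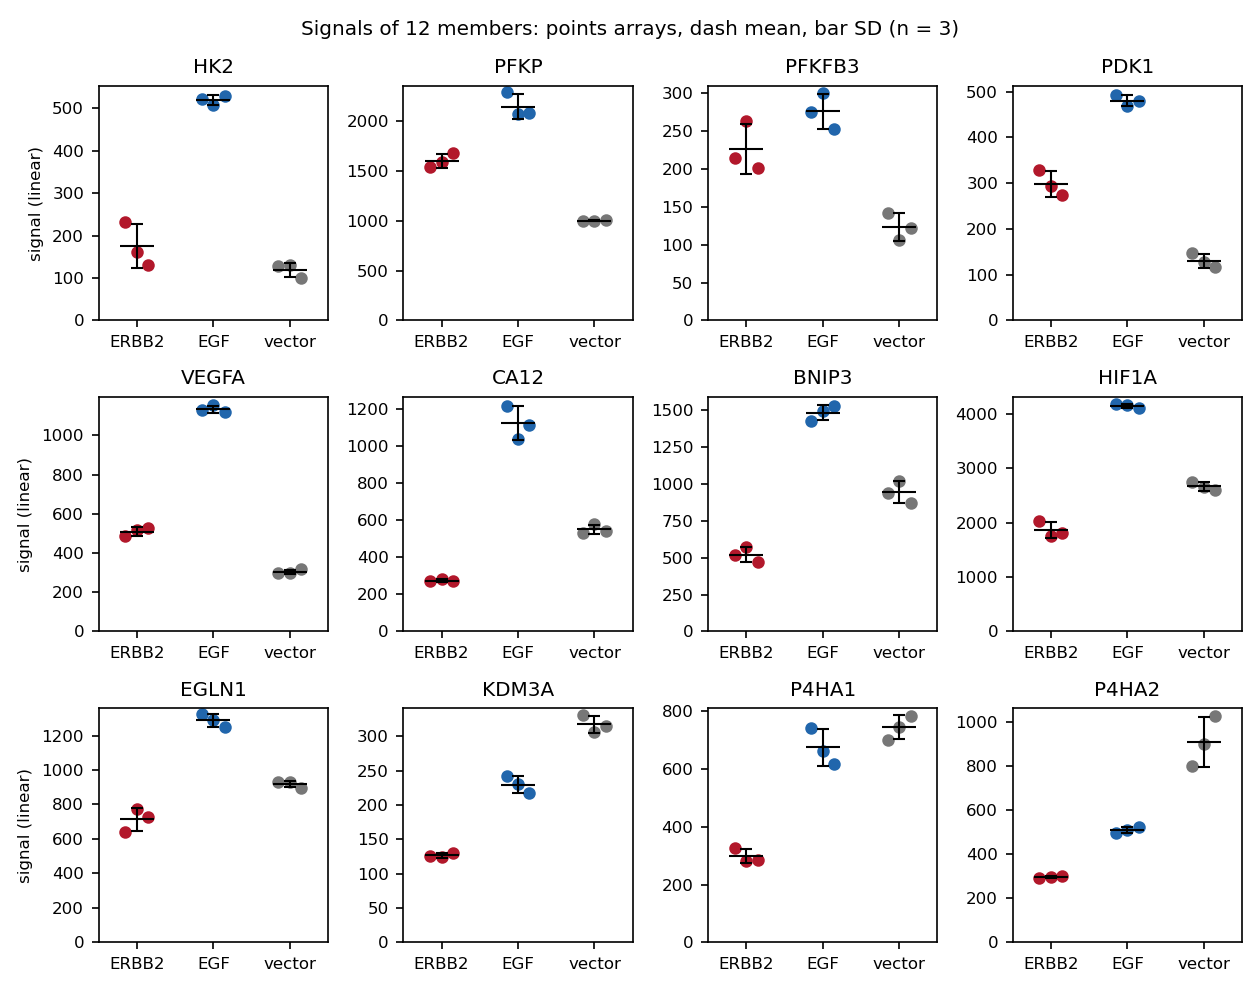
Points are the linear signals of 12 members on each of 9 arrays, dashes are group means and bars are SDs (n = 3), with axes from 0. HK2, PDK1 and VEGFA are highest in EGF arrays, while P4HA1 and P4HA2 are lowest in arrays labelled ERBB2.

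Among the enzymes from aldolase to lactate dehydrogenase, most probe sets were very bright and their changes were small. The sets of GAPDH, LDHA, ENO1, LDHB, ALDOA, PGK1, PGAM1 and PKM were among the brightest 1% on these arrays. ENO1, which makes phosphoenolpyruvate, read 9723, 11073 and 10930.1 in arrays labelled ERBB2, 9790.03, 9267 and 8803 in EGF arrays and 7336, 8071 and 7578 in vector arrays. All 6 arrays of both groups lay above the 3 vector arrays. The rise was 0.46 ± 0.07 in cells labelled ERBB2 (1.38-fold, adjusted p = 1.239e-05) and 0.28 ± 0.07 in EGF cells (1.21-fold, adjusted p = 0.003603). In EGF cells a further bright ENO1 set changed by 0.10 and was not called, nor was the mean of all ENO1 sets (0.16), while in cells labelled ERBB2 that further set was called higher (0.68). ENO1 was the 1 member called higher by its brightest set in cells labelled ERBB2 than in EGF cells (0.19, adjusted p = 0.04994). That call was lost under 11 of 19 alternatives, among them leaving out ERBB2 replicate 2 or 3, EGF replicate 2 or 3, or vector replicate 3. Of 3 further ENO1 sets, 1, the bright one, was also called higher there (0.57, adjusted p = 1.948e-05).

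GAPDH, which links glycolysis to NADH, averaged 14516 ± 820.5 in cells labelled ERBB2, 14406 ± 1157 in EGF cells and 16986 ± 595 in vector cells. It was lower in both, by -0.23 (adjusted p = 0.009252) and -0.24 (adjusted p = 0.009091), and with quantile normalization the first was 0.045 and the second -0.03, neither called. Without ERBB2 replicate 2 the first was not called (-0.18), and the second was not called without EGF replicate 3. GAPDH is often used as a loading control. In cells labelled ERBB2 its sign turned under 1 of 19 alternatives, quantile normalization. Its 2 further sets were also lower there, at -0.13 (not called) and -0.19 (called).

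PKM, pyruvate kinase, averaged 3420.3 ± 314 in cells labelled ERBB2, 4085 ± 312 in EGF cells and 4329 ± 288 in vector cells. It fell by 0.34 in cells labelled ERBB2 against vector (adjusted p = 0.001741) and was not called in EGF cells. Between cells labelled ERBB2 and EGF cells PKM differed by -0.26 (adjusted p = 0.02251), but not without ERBB2 replicate 3 or EGF replicate 2. A dimmer further PKM set was called lower in cells labelled ERBB2 than in vector cells (-0.68) and than in EGF cells (-0.55). ALDOA, the main aldolase, averaged 7064 ± 522, 7648 ± 47.6 and 8102 ± 667 in ERBB2-labelled, EGF and vector cells. It changed by -0.20 in cells labelled ERBB2 (adjusted p = 0.03116) with overlapping groups. The call was lost under 8 of 19 alternatives, among them quantile normalization (-0.01) and leaving out ERBB2 replicate 2 or 3 or vector replicate 2 or 3. Both further ALDOA sets were called lower there, the brighter by -0.20 with overlapping groups and the dimmer by -0.62 without overlap. Against EGF cells the dimmer set was called lower (-0.74) and the brighter was not called (-0.10). PGAM1, phosphoglycerate mutase, averaged 4116 ± 236, 4690.4 ± 102 and 3866 ± 479 in ERBB2-labelled, EGF and vector cells. It was higher in EGF cells than in vector cells (0.28, adjusted p = 0.009136), but not without vector replicate 3. LDHA, which reduces pyruvate to lactate, averaged 12901 ± 518, 13837 ± 1497 and 11698 ± 1029 in the same order. It was called higher in EGF cells (0.24, adjusted p = 0.02178) with overlapping groups. That call was lost without vector replicate 1 or 3 or EGF replicate 1. In cells labelled ERBB2 LDHA was not called (0.14, adjusted p = 0.148). Over the 19 alternatives that change ran from 0.09 to 0.40, and 3 of them called it higher. LDHB, the isoform that favours the reverse reaction, read 8969.8 to 9371, 8549 to 9028 and 8917 to 9426 in ERBB2-labelled, EGF and vector arrays. It was not called in any of the comparisons with its brightest set, and changed by -0.01 in cells labelled ERBB2 and -0.07 in EGF cells. A further LDHB set was called higher in cells labelled ERBB2 than in vector cells (0.20, adjusted p = 0.02174) and than in EGF cells (0.28, adjusted p = 0.004648).

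PGK1, phosphoglycerate kinase, had further probe sets that differed from the brightest one. The brightest set averaged 5853 ± 188 in cells labelled ERBB2, 6701 ± 183 in EGF cells and 6003 ± 628 in vector cells, and was not called against vector in either. Of 5 further sets past the filter, 4 were called higher in cells labelled ERBB2, at 0.24, 0.31, 0.43 and 0.74, and 3 were called higher in EGF cells, at 0.36, 0.48 and 0.52. The brightest TPI1 set (triosephosphate isomerase) was not called in cells labelled ERBB2 (-0.22, adjusted p = 0.05352), whereas 1 dim further set was called higher (1.04). With the mean of all their sets, PGK1 and TPI1 were called higher in cells labelled ERBB2, at 0.31 and 0.30. TPI1 averaged 2986 ± 126 in cells labelled ERBB2 and 3892 ± 119 in EGF cells, a change of -0.38 (adjusted p = 0.002822), which was -0.04 and not called with the mean of all its sets. ALDOC, the brain-type aldolase, averaged 138 ± 21.1 in cells labelled ERBB2, 199 ± 11.5 in EGF cells and 155 ± 20.2 in vector cells, and was called between cells labelled ERBB2 and EGF cells (-0.49, adjusted p = 0.01225), but not without ERBB2 replicate 3 or EGF replicate 1.

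Without the variance trend in limma, several of the smaller calls along glycolysis ended. In cells labelled ERBB2 against vector these were HK2, GPI, PFKL, ALDOA, GAPDH and PKM. In EGF cells against vector they were HK1, PFKFB4, GAPDH, PGAM1, ENO1 and LDHA, and between the groups SLC2A3, TPI1, ENO1 and PKM.

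**Figure D4:**
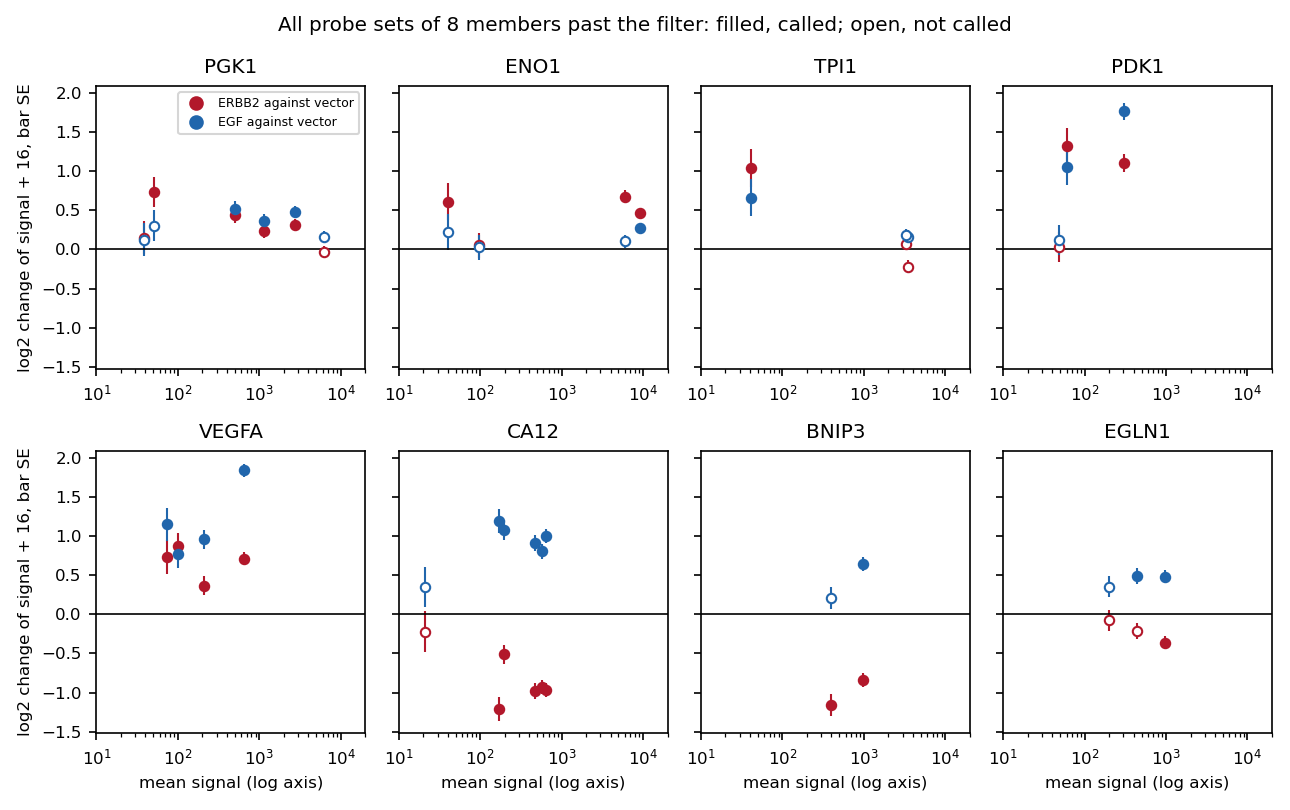
Each point is 1 probe set past the filter for 8 members, placed by its mean signal over 9 arrays on a log axis and its log2 change of signal + 16 with the SE as a bar. For PGK1 the brightest set lies near 0, while 4 of 5 further sets were called higher in arrays labelled ERBB2.

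For the members called, 30 further probe sets of 15 members were available in cells labelled ERBB2 against vector. Of these 30, 27 had the sign of the brightest set, 17 were called with it and 0 were called against it. In EGF cells against vector, 24 of 25 further sets had the same sign and 13 were called with it. In cells labelled ERBB2 against EGF cells, 22 of 26 had the same sign and 12 were called with it. No further set of a called member was called with the opposite sign in these 2 comparisons.

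Pyruvate dehydrogenase, which turns pyruvate into acetyl-CoA inside mitochondria, is inhibited by pyruvate dehydrogenase kinases, of which PDK1 is the classical HIF-1 target. PDK1 read 329, 294 and 273 in arrays labelled ERBB2, 493, 468 and 479.98 in EGF arrays and 146, 128 and 117 in vector arrays. The 3 groups did not overlap, with EGF arrays highest and vector arrays lowest. PDK1 was higher by 1.10 ± 0.11 in cells labelled ERBB2 (2.15-fold, adjusted p = 1.265e-07) and by 1.77 ± 0.11 in EGF cells (3.4-fold, adjusted p = 4.919e-10, or 0.98 with the mean of all its sets). Cells labelled ERBB2 were lower than EGF cells by -0.66 (adjusted p = 0.0001821), but with the mean of all PDK1 sets that change was -0.16 and was not called.

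VEGFA, the growth factor of blood vessels, followed the same order. It read 485, 518 and 526 in arrays labelled ERBB2, 1131, 1153 and 1118 in EGF arrays and 299.9, 299 and 317 in vector arrays. The spread within each group was narrow beside the gaps between groups. VEGFA was higher by 0.71 ± 0.09 in cells labelled ERBB2 (1.64-fold, adjusted p = 1.106e-06) and by 1.84 ± 0.09 in EGF cells (3.58-fold, adjusted p = 5.31e-12), and its 3 further sets were called higher in both. The mean of all sets changed by 1.18 in EGF cells. The difference of cells labelled ERBB2 from EGF cells was -1.13 ± 0.09 (adjusted p = 7.362e-09), or -0.51 with the mean of all sets. Of the 3 further sets, 1 was called lower there (-0.59) and the others were not called, at -0.42 and 0.11. PDK1 and VEGFA were the 2 other HIF members called higher in cells labelled ERBB2.

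HIF1A itself was lower in cells labelled ERBB2 and higher in EGF cells. Its signals were 2027, 1762 and 1799 in arrays labelled ERBB2, 4174, 4154 and 4096 in EGF arrays and 2753, 2660.2 and 2591 in vector arrays. No array of one group reached the range of another. The changes were -0.52 ± 0.07 in cells labelled ERBB2 (0.699-fold, adjusted p = 5.082e-06) and 0.63 ± 0.07 in EGF cells (1.55-fold, adjusted p = 7.912e-07). Cells labelled ERBB2 were lower than EGF cells (0.451-fold, adjusted p = 3.329e-10). These values are of RNA, and HIF1A is known to be controlled largely at the protein.

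EGLN1 (PHD2), the main hydroxylase that marks HIF1A and itself a HIF target, had the same order as HIF1A. It read 642, 772 and 725 in arrays labelled ERBB2, 1325, 1287 and 1249 in EGF arrays and 930.3, 929 and 896 in vector arrays, with no overlap. The change was -0.36 ± 0.08 in cells labelled ERBB2 (adjusted p = 0.001514), a call lost with the mean of all EGLN1 sets, and 0.48 ± 0.08 in EGF cells (1.4-fold, adjusted p = 0.0001628). Between cells labelled ERBB2 and EGF cells EGLN1 differed by -0.84 (0.558-fold, adjusted p = 2.694e-07). EGLN3 (PHD3), the most hypoxia-responsive hydroxylase, was dim at 11.8, 16.8 and 13.1 in arrays labelled ERBB2 and 2.54, 14.4 and 9.80 in vector arrays, and stood at 59.8, 58.9 and 69.1 in EGF arrays. The EGF arrays stood apart, while all vector signals lay under 16. EGLN3 passed the filter through the EGF arrays, so its call as higher there is no independent result and no exact change is given. The log2 difference from vector was 0.80 with a pseudocount of 64 and 2.92 with a pseudocount of 1.

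CA12, a membrane carbonic anhydrase that acidifies the outside of the cell, was lower in cells labelled ERBB2 and higher in EGF cells than in vector cells. It read 271, 281 and 271 in arrays labelled ERBB2, 1217, 1036 and 1115 in EGF arrays and 533, 577 and 540.4 in vector arrays. All 3 groups were separate, with vector cells between the others. The change was -0.96 ± 0.09 in cells labelled ERBB2 (0.513-fold, adjusted p = 3.684e-08) and 1.01 ± 0.09 in EGF cells (2.01-fold, adjusted p = 4.868e-08). Between cells labelled ERBB2 and EGF cells it was -1.97 (0.256-fold, adjusted p = 4.061e-12), and 4 of 5 further CA12 sets were called with the same sign in each comparison.

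BNIP3, which promotes removal of mitochondria, had the same order of groups as CA12. Its signals were 516, 575 and 472 in arrays labelled ERBB2, 1425, 1498 and 1528 in EGF arrays and 940.4, 1019 and 869 in vector arrays. The change was -0.84 ± 0.09 in cells labelled ERBB2 (0.56-fold, adjusted p = 2.314e-07) and 0.65 ± 0.09 in EGF cells (1.57-fold, adjusted p = 1.275e-05, or 0.43 with the mean of its sets). The 3 groups did not overlap, and cells labelled ERBB2 were lower than EGF cells (0.357-fold, adjusted p = 2.881e-10). Against vector, a further BNIP3 set was called lower in cells labelled ERBB2 (-1.16). In EGF cells that set was not called (0.21, adjusted p = 0.3009), with overlapping groups. Its relative BNIP3L, another mitophagy receptor, read 449 to 522 in arrays labelled ERBB2, 461 to 525 in EGF arrays and 488 to 552 in vector arrays. The groups overlapped, and this set was not called: it changed by -0.12 in cells labelled ERBB2 (adjusted p = 0.3678) and by -0.06 in EGF cells (adjusted p = 0.6784). A further BNIP3L set, at 345, 488 and 419 in ERBB2-labelled, EGF and vector cells, was called lower in cells labelled ERBB2 than in vector cells (-0.27, adjusted p = 0.04303) and than in EGF cells (-0.48, adjusted p = 0.001679). CA12, BNIP3, EGLN1 and HIF1A were thus the 4 members whose brightest sets were called lower in cells labelled ERBB2 and higher in EGF cells, against the same vector arrays.

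Collagen prolyl hydroxylases and a histone demethylase, which use oxygen as EGLN enzymes do, had the 3 deepest falls among the members' brightest sets in cells labelled ERBB2. P4HA2 read 294, 298 and 301 in arrays labelled ERBB2, 495, 511 and 525 in EGF arrays and 799, 899 and 1027 in vector arrays. Its level was lower in both, by -1.55 ± 0.10 in cells labelled ERBB2 (0.341-fold, adjusted p = 1.286e-10) and -0.81 ± 0.10 in EGF cells (0.572-fold, adjusted p = 2.462e-06). No array of one group reached the range of another, and cells labelled ERBB2 were lower than EGF cells by -0.75 (adjusted p = 8.611e-06, or -0.47 with the mean of its sets). A dimmer further P4HA2 set changed against vector by -0.54 in cells labelled ERBB2 (called) and by -0.35 in EGF cells (not called). With the mean of its sets the changes against vector were -1.04 and -0.58.

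P4HA1 read 325, 282 and 285 in arrays labelled ERBB2, 742, 663 and 616 in EGF arrays and 700.02, 745 and 783 in vector arrays. It was lower in cells labelled ERBB2 (-1.28 ± 0.10, 0.412-fold, adjusted p = 2.092e-09), while EGF and vector arrays overlapped and did not pass the test (-0.14, adjusted p = 0.3142). KDM3A, a demethylase of histone H3 lysine 9, read 126, 124 and 131 in arrays labelled ERBB2, 241, 230.02 and 217 in EGF arrays and 331, 306 and 314 in vector arrays. It was lower by -1.22 ± 0.11 in cells labelled ERBB2 (0.429-fold, adjusted p = 2.339e-08) and by -0.44 ± 0.11 in EGF cells (adjusted p = 0.00462), the second of which was -0.28 and not called with equal array medians. Against EGF cells, cells labelled ERBB2 were lower by -1.14 in P4HA1 (0.455-fold, adjusted p = 3.891e-08) and by -0.78 in KDM3A (adjusted p = 2.32e-05). These changes against vector exceeded the spread between arrays of a group, apart from P4HA1 in EGF cells.

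ADM, the vasodilator peptide adrenomedullin, read 146, 145 and 98.4 in arrays labelled ERBB2, 241, 209 and 253 in EGF arrays and 199, 274 and 242 in vector arrays. It was lower in cells labelled ERBB2 than in vector cells (-0.81 ± 0.15, adjusted p = 0.0001917) and than in EGF cells (-0.80, adjusted p = 0.0004939). EGF and vector arrays overlapped (-0.01, adjusted p = 0.957). ANKRD37, a small HIF target with ankyrin repeats, read 86.6 to 106, 118 to 145 and 101 to 122 in ERBB2-labelled, EGF and vector arrays. It was not called in any of the comparisons, with changes of -0.14 in cells labelled ERBB2 and 0.26 in EGF cells against vector.

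**Figure D5:**
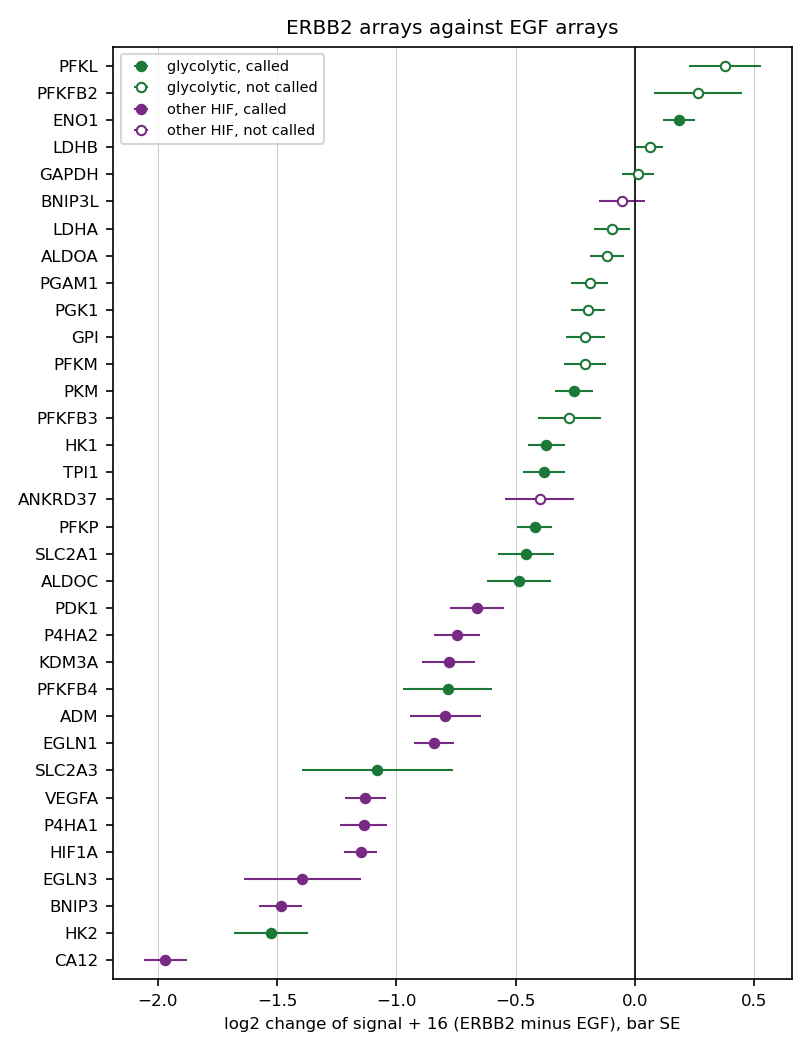
Points are log2 changes of signal + 16 in arrays labelled ERBB2 minus EGF arrays for 34 members (n = 3 each), bars are SEs, and filled points were called at an adjusted p under 0.05. CA12 lies furthest to the left at -1.97, and ENO1 is the called member to the right of 0, at 0.19.

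The neighbouring parts of glucose metabolism were described by lists of further genes chosen with these data's earlier results known. Of 16 further genes of glucose and lactate handling tested, 2 were higher and 6 lower in cells labelled ERBB2, and 4 higher and 2 lower in EGF cells, with medians of -0.19 and 0.01. The shares called, 50.0% and 37.5%, are near the 45.9% and 36.2% of all genes. TIGAR, a phosphatase that lowers fructose 2,6-bisphosphate, was higher by 2.01 and 1.63 in cells labelled ERBB2 and EGF cells. SLC16A7, a monocarboxylate transporter, was lower, by -2.12 and -0.86 in the same order. PGM2, which interconverts sugar phosphates, was lower in cells labelled ERBB2 (-0.64) and higher in EGF cells (0.32).

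Among 12 genes of mitochondrial pyruvate uptake and oxidation tested, 3 were higher and 5 lower in cells labelled ERBB2 (66.7% called, against 45.9% of all genes). In EGF cells 3 were higher and 4 lower (58.3%, against 36.2% of all genes). PDK4, a kinase of the PDK1 family that is known to rise on starvation, averaged 26.96 ± 11.8 in cells labelled ERBB2, 38.8 ± 2.07 in EGF cells and 422.7 ± 14.8 in vector cells (SD, n = 3 each). It fell to 0.0952 of the vector level in cells labelled ERBB2 (adjusted p = 2.008e-11) and to 0.125 in EGF cells (adjusted p = 3.606e-10), the opposite direction to PDK1. PDK3 was also lower in both, by -0.91 and -0.81. DLAT, a core subunit of pyruvate dehydrogenase, was higher by 1.02 and 0.58. The kinases of pyruvate dehydrogenase thus did not move as one group.

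In the pentose phosphate pathway, 2 of 7 genes were higher and 3 lower in cells labelled ERBB2 (71.4% called, against 45.9% of all genes), and 2 were higher and 2 lower in EGF cells (57.1%, against 36.2%). RPIA, which makes ribose 5-phosphate, was higher by 1.29 in cells labelled ERBB2 and by 0.97 in EGF cells. TKT, transketolase, was lower by -0.98 and -0.63.

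Among 12 other subunits and regulators of HIF, 2 were higher and 5 lower in cells labelled ERBB2 (58.3% called, against 45.9% of all genes), and 3 were higher and 3 lower in EGF cells (50.0%, against 36.2%). CITED2, which competes with HIF1A for its coactivators, was lower by -2.80 in cells labelled ERBB2 and by -1.76 in EGF cells. EPAS1 (HIF-2 alpha), the second oxygen-regulated subunit, was lower in cells labelled ERBB2 (-1.09), and differed by -0.09 in EGF cells, which was not called. CREBBP, a coactivator, was lower by -0.95 and -0.51. HIF1A was called higher in EGF cells, as given above, and the difference between the 2 genes was not tested.

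Of 25 further HIF targets, 5 were higher and 11 lower in cells labelled ERBB2, 10 were higher and 4 lower in EGF cells, and 1 was higher and 12 lower in cells labelled ERBB2 against EGF cells. The shares called were 64%, 56% and 52%, against 45.9%, 36.2% and 28.9% of all genes. Over all genes, 20.8% were higher and 25.1% lower, 17.2% higher and 19% lower, and 12.8% higher and 16.1% lower in these comparisons. The medians were -0.16, 0.08 and -0.35 in that order. LOX, which cross-links collagen, was lower by -2.69 in cells labelled ERBB2, by -0.83 in EGF cells and by -1.87 in cells labelled ERBB2 against EGF cells. LOXL2, of the same enzyme family, was lower in cells labelled ERBB2 (-1.02) and higher in EGF cells (0.39). STC2, a secreted glycoprotein, was higher in both, by 1.61 and 1.37, as was the transcriptional repressor BHLHE40, by 0.80 and 1.31. HMOX1 was called lower in EGF cells than in vector cells. It was the 1 further target called higher in cells labelled ERBB2 than in EGF cells. Its EGF signals averaged 8.74 ± 5.58 (SD), under 16, so no exact change is given.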

How the data were processed

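The authors deposited 1 linear signal intensity per probe set and array (54675 probe sets), computed in MAS5 per the submitters' processing notes, whose version and settings the sources used here do not give. Because MAS5 scales whole arrays, a one-way shift of many genes is absorbed in part. No detection calls entered the analysis, and 44.1% to 50.6% of probe sets per array read under 16, where real signal and background cannot be separated.

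Groups were read from the sample titles. After removal of 62 control probe sets, those whose mean log2(signal + 16) exceeded the 40th percentile were fitted with limma 3.58.1 in R 4.3.3 (group means of 9 arrays, 6 residual degrees of freedom, eBayes with a variance trend, Benjamini-Hochberg adjustment). An exact permutation test of 3 against 3 arrays goes no lower than p = 0.1. The brightest probe set annotated to a gene alone stood for it; the platform annotation gave a single gene to 41097 probe sets, several to 1801 and no gene to 11777. Members and lists were chosen with earlier results of these data known. All members are named, and in each further list up to 3 called genes with the widest changes per comparison were eligible. Alternatives changed the pseudocount, filter, normalization, variance trend, arrays fitted, replicate block and probe set rule, or left out 1 array.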

Additional observations from a re-analysis of the deposited data

How the results depend on the processing

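Under 19 alternatives, leaving out each of the 9 arrays gave 6 to 10 members higher and 13 to 16 lower in cells labelled ERBB2 against vector, 13 to 17 and 3 to 5 in EGF cells against vector, and 0 to 1 and 18 to 22 in cells labelled ERBB2 against EGF cells. The same fits called 11338 to 12614, 7717 to 9733 and 6229 to 7853 probe sets, beside 12689, 9445 and 7793 with all arrays. The 5 members lower in EGF cells became 1 with equal array medians, 3 without the variance trend and 3 without EGF replicate 3. The 1 member higher in cells labelled ERBB2 than in EGF cells (ENO1) became 0 with a pseudocount of 1, no filter, equal array medians, no variance trend, the 2 groups alone, the replicate block, and without vector replicate 3, ERBB2 replicate 2 or 3, or EGF replicate 3, and 2 with quantile normalization or the mean of all probe sets. Sign turns are given where the main or the alternative fit was called. In cells labelled ERBB2 against vector they were PFKFB2 (-0.042), TPI1 (0.30) and PGK1 (0.31) with the mean of all probe sets. With quantile normalization they were GAPDH (0.045) and LDHB (0.25). Turns between uncalled values, such as SLC2A3 from 0.073 to -0.25 with 1 array left out, are not listed. The cause was not tested. Calls held under all alternatives that gave a value for 14 of 23 members in cells labelled ERBB2, 11 of 20 in EGF cells and 13 of 21 between them. The counts for EGF cells and between the groups include EGLN3, which passed the filter through the EGF arrays. Replicate numbers did not pair the arrays: deviations of 9 same-numbered pairs correlated at -0.03 to 0.02, and 1 of 9 arrays was closest to its own number. With the number as a block, 12551, 9312 and 7618 probe sets were called in the 3 comparisons, and 7 members were higher and 15 lower in cells labelled ERBB2, 15 and 5 in EGF cells, and 0 and 21 between them. Brightest probe sets, dim sets without detection calls and 3 arrays a group limit what small changes can be seen.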
